A study of Homo sapiens with 23 samples.

Results

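The genes described here build the 2 best known vesicle routes into the cell, clathrin-coated pits and caveolae. They are CLTC, CLTA and CLTB (clathrin chains), AP2A1, AP2B1 and AP2M1 (subunits of the AP-2 adaptor), DNM1 and DNM2 (dynamins), and CAV1 and CAV2 (caveolins). All probe sets whose gene symbol in the deposited tables was 1 of these 10 were taken, which gave 10 of 20066 named genes and 30 of 54675 probe sets on the array. The cells were HEK293T, an established line from human embryonic kidney with the large T antigen of SV40, and their RNA was read on 23 Affymetrix arrays as biotin-labelled cRNA. Polyplexes were particles of cationic branched polyethylenimine (bPEI, 25 kDa, a size that the labels give for 2, 8 and 16 h) and pEGFP-LUC, a plasmid with green fluorescent protein (GFP) and luciferase reporters, and were added 18 h after seeding. At 2 h, unsorted treated cells (3 arrays) were set against untreated cells that had received no polyplexes (2 arrays). At 8, 16 and 24 h, transfected cells, which were GFP positive (3 arrays per time), were set against untransfected cells, which were GFP negative (3 arrays per time). Both populations were sorted by flow cytometry from treated cultures, so untransfected cells had also met polyplexes, and none of these times has an untreated group. Reporter fluorescence defined the transfected cells, and it shows that the plasmid was expressed, not how much of it had entered.

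Clathrin triskelia, made of the heavy chain CLTC with the light chains CLTA and CLTB, assemble into a coat on the inner face of the plasma membrane. The AP-2 complex binds membrane lipid and the tails of cargo receptors and so ties the coat to them. Dynamin is a GTPase that forms a collar around the neck of a pit and cuts the vesicle free. DNM2 is found in most tissues and DNM1 is known mainly from neurons. Caveolae are small flask-shaped pits whose coat is built on CAV1, with which CAV2 forms mixed oligomers. Polyethylenimine polyplexes are commonly described as entering cells by both routes and by macropinocytosis. The comparisons address whether transcripts of this machinery differ soon after contact with polyplexes, and between cells that do and do not come to express the plasmid.

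The deposited values are log2 expression from robust multi-array averaging (RMA), so every level and difference below is on the log2 scale, and levels are compared only within a probe set and a time, except in a rough check of the cell label, since a level also depends on its probes. Within a time the array medians lay close together, between 4.85 and 4.89 (2 h), 4.66 and 4.71 (8 h), 4.96 and 5.10 (16 h), or 4.93 and 4.97 (24 h). For that check, markers of HEK293 cells read high on the array, with medians over the 23 arrays of 12.49 for VIM, 10.97 for LIN28B and 9.36 for NEFL, whereas PTPRC of blood cells (3.00), CDH5 of endothelium (3.44) and LUM of fibroblasts (2.46) were near the low end. The mean level of the 8 HEK293 markers was 7.85 to 7.98 on transfected arrays at 8 h, below the 8.12 to 8.17 on untransfected arrays. At 2 h it was 8.51 to 8.63 on treated arrays, below the 8.70 on both untreated arrays, and at 16 h the groups overlapped (8.49 to 8.61 on transfected and 8.60 to 8.79 on untransfected arrays). Of 10 haematopoietic probe sets, 1 passed at 8 and at 16 h, a dim one of ITGAM, which was higher in transfected cells by 1.63 and 1.38. The source name of transfected replicate 3 at 8 h says 16 h against its title, and the array was kept at 8 h. The BioB spike-in read 5.67 to 6.13 on transfected arrays and 7.91 to 8.31 on untransfected arrays at 16 h, and 8.09 on untreated replicate 2 against 5.08 to 5.65 on the other 2 h arrays. The 3′ minus 5′ difference of ACTB was 2.68 on treated 2 h replicate 1 and 1.23 to 1.44 on the other 2 h arrays. At 8 h it was 2.15 on transfected and 2.29 on untransfected replicate 3, and 1.68 to 1.89 on the other arrays. At 16 h it was 1.67 on transfected and 1.80 on untransfected replicate 3, and 0.85 to 1.36 on the others. At 2 h many member probe sets also held exactly the same value on some of the arrays. AP2M1, for example, read 10.0831 on both treated and untreated replicate 1. What part these measures and equal values have in the results, or in the spread at 2 h, was not tested. Arrays are called biological replicates, but no label says that each came from its own culture or gives its day, so the p-values cover only the spread seen from array to array.

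None of the 30 probe sets changed past the threshold at any time in the unpaired fit. At 8 h the replicate numbers were taken to pair the samples, which no label states. There a fit with the replicate number as a block called 1, CAV2 203324_s_at, described with the caveolins (adjusted p = 0.0331 in limma). It called 9.4% of all probe sets. At 16 h, where the numbers were not taken to pair samples, that fit called the same probe set (adjusted p = 0.0438 in limma), beside 6.75% of all. A probe set passed at an adjusted p under 0.05 in limma, adjusted by Benjamini-Hochberg over the 54613 probe sets that are not array controls. At 2 h, 0 of 30 passed, against 0.549% of all probe sets (0.214% higher and 0.335% lower in treated cells). At 8 h, 0 of 30 passed, against 6.91% of all probe sets (2.75% higher and 4.15% lower in transfected cells). At 16 h it was 0 of 30, against 4.43% (2.47% higher and 1.96% lower). At 24 h no probe set on the array passed (0% of all, in either direction). An unadjusted p under 0.05 was reached by 6 member probe sets for the 2 h comparison (20%, where 9.73% of all probe sets reached it) and by 2 for 8 h (6.67%, against 21%). It was reached by 3 for 16 h (10%, against 17.9%) and by 0 for 24 h (0%, against 2.78%). In time order the median log2 fold changes of the members were -0.05, -0.02, 0.02 and 0.03, beside 0.01, 0.00, -0.04 and 0.01 over all probe sets. Of the 30, 23 lay above the median of all probe sets in mean level and 7 at or below it. Those 7 dim ones belong to CLTC (2), CLTB, AP2A1, DNM1, DNM2 and CAV2 (1 each). At 2, 8 and 16 h 0 of the 23 brighter ones passed, where 0.877%, 11.1% and 7.02% of all probe sets above the median did. An unadjusted p under 0.05 was reached by 21.7%, 8.7% and 8.7% of the 23, against 13.9%, 29.7% and 24.6%.

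The intervals bound how large a change these arrays leave possible. The 95% interval of the log2 fold change lay within 0.5 either side of 0, a 1.41-fold change, for 20 of 30 probe sets in the 2 h and in the 8 h comparison, and for 24 in the 16 h one. It lay within 1 either side of 0, a 2-fold change, for 29 of 30 at 2 h and for 30 of 30 at both 8 and 16 h. The exception at 2 h was DNM1 215116_s_at, whose interval reached -1.005. A probe set that missed the threshold is not thereby shown to be unchanged. Groups that did not overlap were also no more than a description: 2 member probe sets lay wholly higher and 6 wholly lower in treated cells at 2 h, where 9.57% and 10.3% of all probe sets did. In transfected cells 1 lay higher and 1 lower at 8 h (10.8% and 12.7% of all), and 2 higher and 3 lower at 16 h (8.07% and 13.1% of all). On the 24 h arrays 0 lay higher and 2 lower (4.17% and 3.14% of all).

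**Figure D1:**
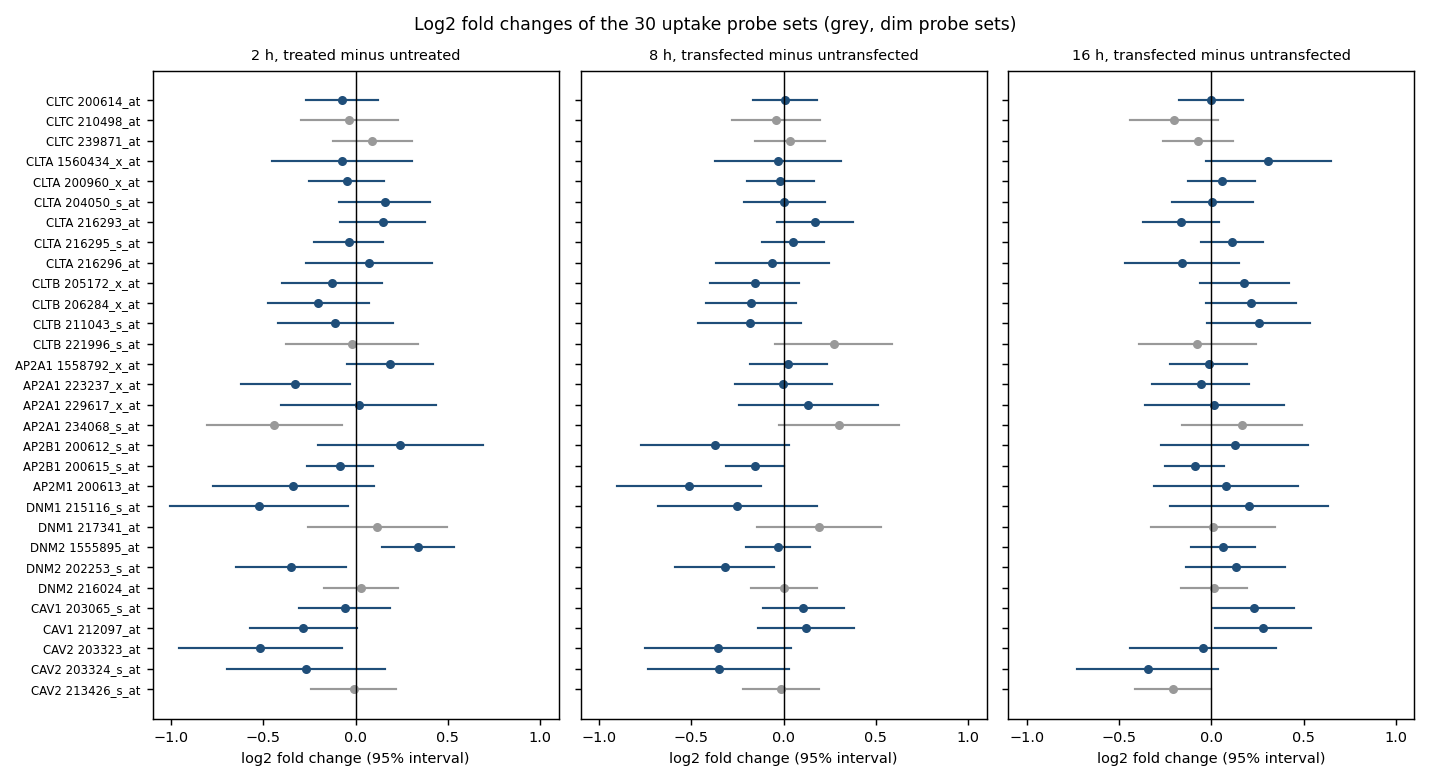
Log2 fold change (horizontal axis) of the 30 uptake probe sets (rows) at 2, 8 and 16 h, tested minus control population as each panel title states. Points are limma estimates and lines their 95% intervals, and probe sets at or below the median level are grey. CLTC 200614_at stays close to 0 in all 3 panels, whereas AP2M1 and both brighter CAV2 probe sets lie left of 0 at 8 h, with estimates of -0.51, -0.35 and -0.35.

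The clathrin heavy chain varied little between groups on its bright probe set. CLTC 200614_at read 12.44, 12.41 and 12.41 in treated cells at 2 h, against 12.44 and 12.55 in untreated cells. At 8 h it read 11.79, 11.96 and 11.89 in transfected cells, against 11.73, 11.88 and 12.01 in untransfected cells. At 16 h it read 12.48, 12.49 and 12.51 in transfected cells, against 12.53, 12.50 and 12.47 in untransfected cells. The groups overlapped at each time, and the log2 fold changes were -0.07 (SE 0.09), 0.01 (SE 0.08) and 0.00 (SE 0.08). The 95% interval was -0.16 to 0.18 at 8 h and -0.18 to 0.17 at 16 h. The other CLTC probe sets, 210498_at and 239871_at, averaged under 3.1 in every group and carry little signal.

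The light chains link the triskelion to its regulators. For CLTA the 3 bright probe sets, 200960_x_at, 204050_s_at and 216295_s_at, had log2 fold changes between -0.05 and 0.16 at 2 h, between -0.02 and 0.05 at 8 h, and between 0.00 and 0.11 at 16 h. None of them passed. The dimmer 1560434_x_at was 0.31 higher in transfected cells at 16 h (SE 0.16), and limma gave an adjusted p of 0.334. CLTB was read by 3 bright probe sets that followed one another closely. Their values, centred on the mean of each time, had Pearson correlations of 0.90 to 0.97 over the 17 arrays of 2, 8 and 16 h. The dim CLTB 221996_s_at did not follow them (r of -0.46 to -0.40). Its log2 fold changes were 0.27 (SE 0.15) at 8 h and -0.08 (SE 0.15) at 16 h.

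CLTB 211043_s_at read 8.68, 8.31 and 8.19 in transfected cells at 8 h, against 8.49, 8.67 and 8.57 in untransfected cells. At 16 h it read 9.08, 8.81 and 9.32 in transfected cells, against 8.73, 8.78 and 8.93 in untransfected cells. Transfected cells were thus spread more widely than untransfected cells at both times, and the groups overlapped. The 3 bright probe sets had log2 fold changes of -0.16 to -0.18 at 8 h and 0.18 to 0.26 at 16 h. The effect at 16 h minus that at 8 h was 0.34, 0.39 and 0.44, with adjusted p-values of 0.570, 0.520 and 0.525 from limma, so the turn in sign did not pass. It did not pass for any of the 30 probe sets, where 0.00183% of all probe sets did.

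AP-2 is a complex of 4 kinds of subunit, of which the alpha (AP2A1), beta (AP2B1) and mu (AP2M1) subunits are covered here. AP2M1, the subunit that reads tyrosine-based signals in cargo tails, had the lowest p of all members at 8 h. Its only probe set, 200613_at, read 8.98, 8.88 and 8.59 in transfected cells at 8 h, against 8.89, 9.38 and 9.72 in untransfected cells. The groups overlapped because untransfected replicate 1 lay below transfected replicate 1. Means were 8.82 ± 0.20 and 9.33 ± 0.42 (SD, n = 3 each), a log2 fold change of -0.51 (SE 0.18, 95% interval -0.90 to -0.12), and limma gave an adjusted p of 0.110. Without untransfected replicate 1 the difference was -0.73 and the adjusted p 0.0217, and without untransfected replicate 3 it was -0.32 and 0.402. In a fit with a block for the replicate number the adjusted p was 0.145. The differences between same-numbered arrays were 0.09, -0.49 and -1.13. In bulk RNA of a sorted population, fewer cells with a transcript and less of it per cell cannot be told apart.

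At 2 h AP2M1 read 10.08, 9.79 and 10.00 in treated cells, against 10.08 and 10.50 in untreated cells. The difference was -0.34 (SE 0.21), and limma gave an adjusted p of 0.685. At 16 h it read 9.80, 9.29 and 9.40 in transfected cells, against 9.36, 9.31 and 9.59 in untransfected cells. The groups overlapped at both times, and the 16 h log2 fold change was 0.08 (SE 0.18). The 16 h effect minus the 8 h effect was 0.59 (SE 0.26), with an adjusted p of 0.537 in limma.

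AP2B1, whose product recruits clathrin to the membrane, has 2 bright probe sets that did not follow each other (r = 0.08 over the 17 arrays, centred by time). At 8 h 200612_s_at read 7.67, 8.34 and 8.34 in transfected cells, against 8.28, 8.39 and 8.80 in untransfected cells. That is a difference of -0.37 (SE 0.19) with an adjusted p of 0.279 in limma, while 200615_s_at gave -0.15 (SE 0.08) and 0.256. Without transfected replicate 1, its lowest array, 200612_s_at was at -0.15, and without untransfected replicate 3 at -0.22. At 16 h 200615_s_at read 7.87, 7.82 and 7.77 in transfected cells, all below the 7.92, 7.93 and 7.89 in untransfected cells. That gap of -0.09 (SE 0.08) was small, and limma gave an adjusted p of 0.595.

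AP2A1 has 4 probe sets, of which 223237_x_at and 234068_s_at followed each other (r = 0.81) and the others did not. At 2 h 234068_s_at read 4.31, 4.17 and 4.28 in treated cells, against 4.28 and 5.11 in untreated cells. Treated arrays were close together and untreated replicate 2 alone was high. Treated replicate 3 and untreated replicate 1 held exactly the same value, 4.2796. The difference was -0.44 (SE 0.17), and limma gave an adjusted p of 0.360. At 8 h the same dim probe set read 4.05, 3.98 and 4.14 in transfected cells, all above the 3.64, 3.75 and 3.89 in untransfected cells, a difference of 0.30 (SE 0.15) with an adjusted p of 0.286 in limma. The brighter 223237_x_at gave 0.00 (SE 0.12) there.

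The dynamins gave the lowest p of all members at 2 h. DNM2 1555895_at read 7.38, 7.36 and 7.19 in treated cells, all above the 6.89 and 7.05 in untreated cells. The log2 fold change was 0.34 (SE 0.09, 95% interval 0.14 to 0.53), a 1.26-fold difference, and limma gave an adjusted p of 0.126. The brighter DNM2 202253_s_at went the other way. It read 7.33, 7.26 and 7.24 in treated cells, all below the 7.38 and 7.86 in untreated cells, which gave -0.35 (SE 0.14) and an adjusted p of 0.387. The 2 probe sets had no common course over the 17 arrays (r = -0.08), so no direction for DNM2 at 2 h can be taken from them together.

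At 8 h DNM2 202253_s_at read 6.87, 6.86 and 6.59 in transfected cells, all below the 6.94, 7.13 and 7.22 in untransfected cells. The log2 fold change was -0.32 (SE 0.13, 95% interval -0.59 to -0.05), a fold of 0.80, and limma gave an adjusted p of 0.148. The other 2 DNM2 probe sets gave -0.03 (SE 0.08) and 0.00 (SE 0.08) there. At 16 h 202253_s_at gave 0.13 (SE 0.13), with overlapping groups. DNM1 215116_s_at read 6.34, 6.05 and 6.23 in treated cells at 2 h, against 6.29 and 7.17 in untreated cells, which gave -0.52 (SE 0.23) and an adjusted p of 0.441 in limma. Its log2 fold changes were -0.25 (SE 0.20) at 8 h and 0.20 (SE 0.20) at 16 h. The dim DNM1 217341_at gave 0.12 (SE 0.18) at 2 h, 0.19 (SE 0.16) at 8 h and 0.01 (SE 0.16) at 16 h.

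Several of the 2 h differences rested on untreated replicate 2, the array with the high BioB reading. Without it, the log2 fold change of treated minus untreated cells was -0.08 for DNM1 215116_s_at, -0.11 for DNM2 202253_s_at, -0.13 for AP2M1, -0.07 for AP2A1 223237_x_at and -0.03 for AP2A1 234068_s_at. Without untreated replicate 1 instead, AP2A1 234068_s_at was at -0.86, with an adjusted p of 0.0207. The DNM2 1555895_at difference was 0.42 without untreated replicate 2 and 0.26 without untreated replicate 1. In such fits the single untreated array is taken to vary like the other groups.

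DNM2 202253_s_at and AP2M1 moved together across arrays. Over the 17 arrays of 2, 8 and 16 h, centred by time, their values had a Pearson correlation of 0.86, the highest among the brightest probe sets of the 10 genes, followed by DNM1 with DNM2 (0.82). The 2 promoters are shown because these are the members that moved together. They are the 250 bases before the gene start on the plus strand, from RefSeq (GRCh38.p14), AP2M1 at chr3:184174605-184174854 and DNM2 at chr19:10717829-10718078. Capitals mark the GC box (GGGCGG) and the CCAAT box (CCAAT) on either strand. The TATA box (TATAAA) and the E-box CACGTG were also searched on either strand and not found.
AP2M1: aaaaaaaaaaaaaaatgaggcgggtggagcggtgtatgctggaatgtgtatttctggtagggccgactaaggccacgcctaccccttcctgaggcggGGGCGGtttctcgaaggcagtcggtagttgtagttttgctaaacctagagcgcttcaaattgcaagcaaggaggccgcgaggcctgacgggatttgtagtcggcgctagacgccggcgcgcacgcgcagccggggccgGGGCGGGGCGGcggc
DNM2: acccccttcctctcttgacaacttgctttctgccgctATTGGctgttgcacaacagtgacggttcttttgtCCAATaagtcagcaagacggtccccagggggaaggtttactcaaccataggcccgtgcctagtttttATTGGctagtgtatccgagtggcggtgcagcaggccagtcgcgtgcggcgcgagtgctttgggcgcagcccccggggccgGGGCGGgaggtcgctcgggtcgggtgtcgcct
AP2M1 holds 3 matches of the GC box, of which the last 2 overlap, and none of the CCAAT box. DNM2 holds 1 GC box and 3 CCAAT matches. Of 35116 RefSeq promoter windows of the same length, 42.6% hold at least 1 GC box and 32.0% at least 1 CCAAT box. A TATA box is held by 10.7% and an E-box by 6.35%. Holding at least 1 GC box or CCAAT box is thus common, and windows that hold 3 were not counted.

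The probe sets of other genes most like AP2M1 across the same arrays were those of CST3 (r = 0.98), TRIM28 (0.97) and NAPA (0.96). For DNM2 202253_s_at they were PLD3, IPO13 and TIMM22, each at 0.95. CLTC 200614_at was most like KHDRBS1 (0.89), PRKCI (0.88) and ZNF687 (0.88), and CAV1 203065_s_at most like PHF2P1 (0.84), USP44 (0.82) and C1orf50 (0.81). The arrays of a group share their treatment and normalization, and these correlations are a description.

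**Figure D2:**
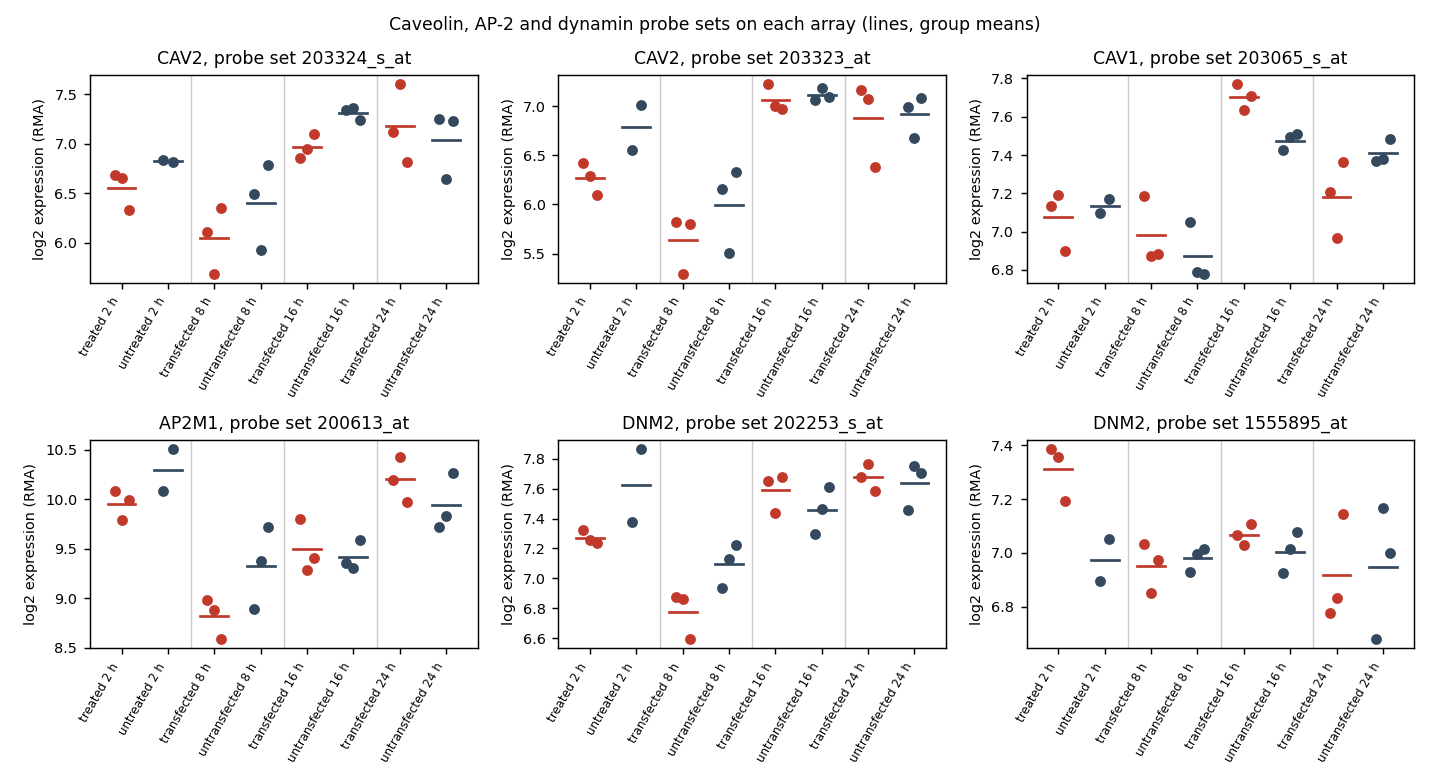
Log2 expression (vertical axis, own range in each panel) of 6 uptake probe sets on each of the 23 arrays, by group, with treated or transfected cells in red left of untreated or untransfected cells in blue. Lines are group means, and grey rules part the times, between which levels are not compared. DNM2 202253_s_at lies lower in all transfected arrays at 8 h (6.59 to 6.87, against 6.94 to 7.22), and CAV1 203065_s_at higher in all transfected arrays at 16 h.

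The caveolins were read by 5 probe sets, 2 of CAV1 and 3 of CAV2. CAV2 203324_s_at read 6.11, 5.69 and 6.35 in transfected cells at 8 h, against 6.49, 5.93 and 6.79 in untransfected cells. The groups overlapped, yet each transfected array was below the untransfected array of its own number, by 0.38, 0.24 and 0.44. Means were 6.05 ± 0.33 and 6.40 ± 0.44 (SD, n = 3 each), a log2 fold change of -0.35 (95% interval -0.73 to 0.03), and limma gave an adjusted p of 0.285 (SE 0.18). At 8 h the replicate numbers were taken to pair the samples, from correlations of 0.26, 0.24 and 0.32 between the deviations of same-numbered arrays. No label states such a pairing. In a fit blocked by replicate number the SE was 0.09 and CAV2 203324_s_at passed, lower in transfected cells with an adjusted p of 0.0331 in limma. That fit called 9.4% of all probe sets and 1 of the 30 members. It held blocks at 2, 8 and 16 h and shared 1 spread over these times, so its SE is not that of 8 h alone.

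The second bright CAV2 probe set, 203323_at, read 5.83, 5.30 and 5.80 in transfected cells at 8 h, against 6.16, 5.50 and 6.33 in untransfected cells. Here too the groups overlapped and each transfected array lay below its numbered partner, by 0.34, 0.21 and 0.52. The difference was -0.35 (SE 0.19) with an adjusted p of 0.296 in limma, and 0.0895 in the blocked fit. Without untransfected replicate 2, the lowest array of its group, the unblocked difference was -0.60 with an adjusted p of 0.0496. Without transfected replicate 2 it was -0.18, and without untransfected replicate 3 -0.19. Without the array whose labels name both 8 and 16 h, 203324_s_at and 203323_at were at -0.50 and -0.44. Leaving out each 8 h array in turn gave -0.59 to -0.16 for 203324_s_at, with untransfected replicates 2 and 3 at those ends and transfected replicate 2 at -0.17. The 2 bright CAV2 probe sets correlated at 0.79 over the 17 arrays.

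At 16 h CAV2 203324_s_at read 6.85, 6.95 and 7.10 in transfected cells, all below the 7.34, 7.36 and 7.24 in untransfected cells. The log2 fold change was -0.34 (SE 0.18, 95% interval -0.73 to 0.04), a fold of 0.79, and limma gave an adjusted p of 0.337. In the fit blocked by replicate number the adjusted p was 0.0438 in limma, and 0.874 for 203323_at. That fit called 6.75% of all probe sets at 16 h, where the numbers were not taken to pair the samples. CAV2 203323_at read 7.23, 7.00 and 6.97 in transfected cells, against 7.06, 7.19 and 7.09 in untransfected cells. Its log2 fold change was -0.05 (SE 0.19), so the 2 bright probe sets of the gene did not give the same size at 16 h. At 2 h 203323_at read 6.42, 6.29 and 6.09 in treated cells, all below the 6.55 and 7.02 in untreated cells, which gave -0.52 (SE 0.21) and an adjusted p of 0.386 in limma. It was -0.29 without untreated replicate 2. CAV2 213426_s_at is dim, and limma gave -0.21 (SE 0.10, adjusted p = 0.275) at 16 h.

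CAV1, the protein on which the caveolar coat is built, had positive values at 8 and 16 h, where the bright CAV2 probe sets had negative ones, and at 2 h the values of both genes were negative. CAV1 203065_s_at read 7.77, 7.64 and 7.71 in transfected cells at 16 h, all above the 7.42, 7.50 and 7.51 in untransfected cells. The log2 fold change was 0.23 (SE 0.10, 95% interval 0.01 to 0.45), a fold of 1.17, and limma gave an adjusted p of 0.262. CAV1 212097_at averaged 7.27 ± 0.10 in transfected cells and 7.00 ± 0.05 in untransfected cells (SD, n = 3 each), again with no overlap. The difference was 0.28 (SE 0.12), and limma's adjusted p of 0.244 was the lowest of the members at 16 h. Left out in turn, the 16 h arrays gave 0.19 to 0.26 for 203065_s_at and 0.22 to 0.32 for the other. At 8 h the 2 probe sets gave 0.11 (SE 0.10) and 0.12 (SE 0.12), and at 2 h -0.06 (SE 0.12) and -0.28 (SE 0.14). Whether CAV1 and CAV2 differ in their response was not tested. At 16 h all 3 transfected arrays also read lower in BioB than the untransfected arrays.

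CAV1 and CAV2 are neighbours on chromosome 7 in the RefSeq annotation, and their promoters are shown because the values of these neighbours had opposite signs at 8 and 16 h, though not at 2 h. Both are the 250 bases before the gene start on the plus strand (RefSeq, GRCh38.p14), CAV1 at chr7:116524759-116525008 and CAV2 at chr7:116499488-116499737. Capitals mark the GC box (GGGCGG) on either strand, and the other 3 motifs named above had no match in either.
CAV1: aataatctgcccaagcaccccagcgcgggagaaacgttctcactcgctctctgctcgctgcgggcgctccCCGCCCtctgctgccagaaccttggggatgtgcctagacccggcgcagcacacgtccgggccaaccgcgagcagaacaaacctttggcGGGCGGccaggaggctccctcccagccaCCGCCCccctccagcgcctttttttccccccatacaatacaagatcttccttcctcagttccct
CAV2: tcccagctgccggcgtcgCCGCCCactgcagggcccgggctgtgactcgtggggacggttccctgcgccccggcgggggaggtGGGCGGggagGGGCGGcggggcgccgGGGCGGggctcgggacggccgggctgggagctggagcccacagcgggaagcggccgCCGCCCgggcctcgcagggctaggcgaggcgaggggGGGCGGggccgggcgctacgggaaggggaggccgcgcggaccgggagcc
CAV1 holds 3 matches of it and 63.6% G and C, and CAV2 holds 6 matches and 83.2% G and C, where the median over all 35116 windows is 58%. Across the 17 arrays the bright probe sets CAV1 203065_s_at and CAV2 203324_s_at had a correlation of -0.12, centred by time.

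**Figure D3:**
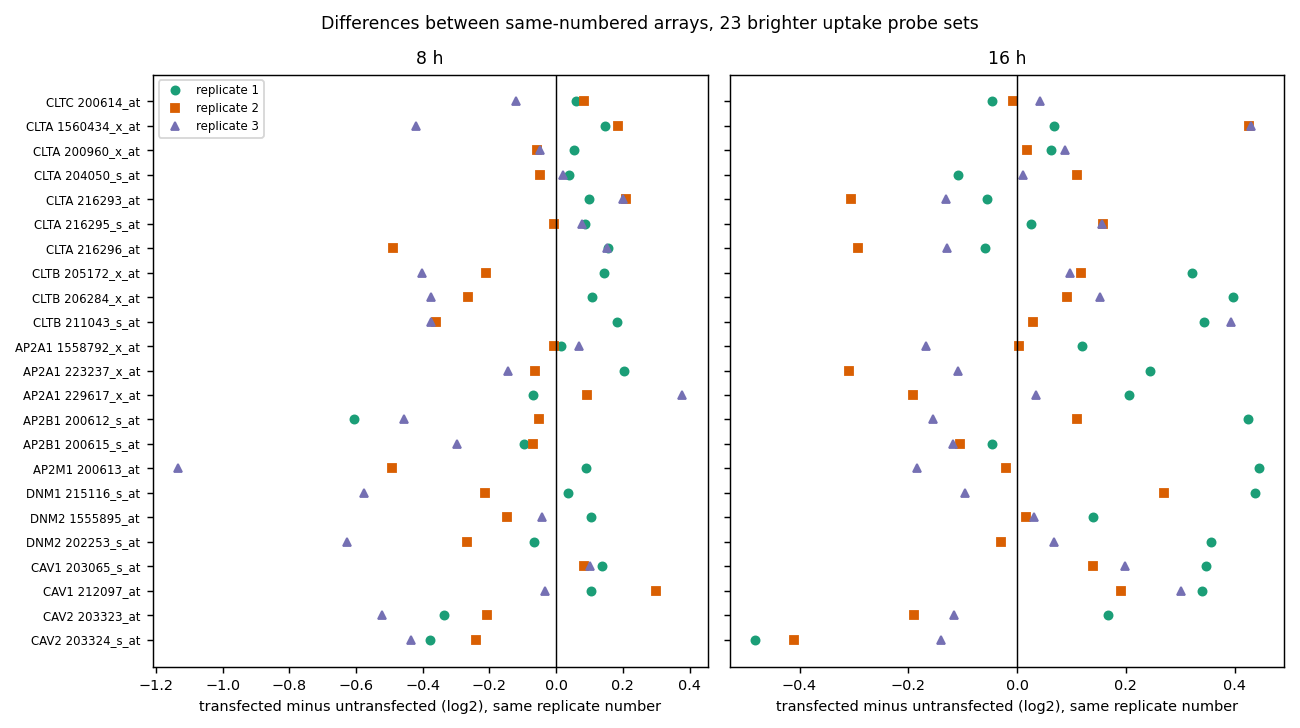
Transfected minus untransfected log2 expression (horizontal axis) between arrays of the same replicate number at 8 h (left) and 16 h (right), for the 23 uptake probe sets above the median level. Symbols are the 3 replicate numbers. Both CAV2 probe sets have all 3 symbols left of 0 at 8 h, while AP2M1 spreads between 0.09 and -1.13.

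Among all 30 probe sets, the 3 numbered differences at 8 h were all positive for 3 and all negative for 5. At 16 h they were all positive for 9 and all negative for 5. Both CAV1 probe sets were among the 9 at 16 h, and both bright CAV2 probe sets among the 5 at 8 h. The others among the 9 were probe sets of CLTA, CLTB and DNM2, and probe sets of the same gene can follow one another. Such signs were not counted over all probe sets, so whether the members differ from the array in them was not tested. Replicate numbers were taken to pair samples at 8 h alone, so the 16 h counts are only a description.

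At 24 h the arrays and the authors' deposited table did not give the same values, and no direction is drawn for that time. At 2, 8 and 16 h the group means in the authors' deposited tables matched those computed from the arrays within 1e-06 for 54675 of 54675 probe sets, and at 24 h they matched for 0. Across all probe sets, the log2 fold changes from the 24 h arrays and from the authors' deposited table had a correlation of -0.52, as a description. Of the 30 member probe sets 8 had the same sign in both sources at 24 h, against 30 of 30 at each other time. AP2M1 read 10.20, 10.43 and 9.98 in transfected cells on the 24 h arrays as labelled, against 9.72, 9.83 and 10.26 in untransfected cells, a difference of 0.26 (SE 0.18) with an adjusted p of 0.978 in limma. The authors' deposited table gives 9.70 for transfected and 10.24 for untransfected cells, a log2 fold change of -0.54 with a posterior probability of 0.986.

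AP2A1 234068_s_at was at 0.71 (SE 0.40) on the arrays as labelled, with 5.78, 6.59 and 5.09 in transfected cells, against 4.54, 5.13 and 5.66 in untransfected cells. In the authors' deposited table it was at -1.09 with a posterior probability of 0.989. These were the 2 members above 0.9 in the authors' deposited 24 h table, followed by CLTA 1560434_x_at at 0.54 and 0.810. CAV2 203323_at and 203324_s_at were at -0.45 and -0.42 in the authors' deposited table, with posterior probabilities of 0.432 and 0.345, and at -0.04 and 0.14 on the arrays. At the other times the highest posterior probability of a member in the authors' deposited tables was 0.508 for DNM2 202253_s_at at 2 h, 0.567 for AP2M1 at 8 h and 0.324 for CLTC 210498_at at 16 h.

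**Figure D4:**
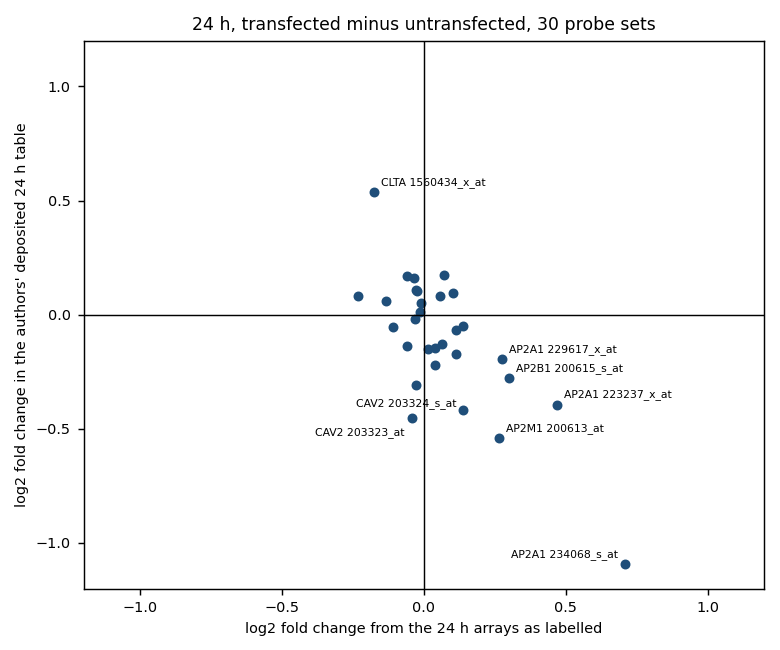
Log2 fold change of transfected minus untransfected cells at 24 h for the 30 uptake probe sets, from the arrays as labelled (horizontal axis) and from the authors' deposited table (vertical axis). Most points lie in the upper left and lower right parts, where the sources have opposite signs, and AP2A1 234068_s_at lies farthest out at 0.71 and -1.09.

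The partners of these genes in endocytosis held probe sets that passed, at shares close to that of the whole array. The partner lists were not split by level, and of all probe sets above the median 11.1% passed at 8 h and 7.02% at 16 h. At 2 h 1 passed in all, ITSN1 1557280_s_at, a dim probe set of the scaffold intersectin 1, which was 0.54 higher in treated cells (SE 0.09, adjusted p = 0.0169 in limma). It is 1 of 100 probe sets of 30 clathrin coat partners. At 8 h 8 of those 100 passed, 1 higher and 7 lower in transfected cells (8%, against 6.91% of all probe sets). The higher one was ITSN1 230042_at (0.54, adjusted p = 0.0137). Among the lower ones were the adaptors STON2 (-0.48, adjusted p = 0.0180) and EPS15L1 (-0.52, adjusted p = 0.0181) and the AP-2-associated kinase BMP2K (-0.53, adjusted p = 0.0229). ITSN1 230042_at (4.29 in transfected and 3.76 in untransfected cells) and EPS15L1 (3.15 and 3.67) are dim, below the medians of the 8 h arrays. At 16 h 3 of 100 passed (3%, against 4.43%). These were NECAP2, an AP-2 ear binder (-0.73, adjusted p = 0.0126), REPS1 (-0.44, adjusted p = 0.0368) and again ITSN1 230042_at (0.51, adjusted p = 0.0235).

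Of 62 probe sets of scission and uncoating genes, 1 was higher and 5 were lower at 8 h (9.68%), and 1 was higher and 2 were lower at 16 h (4.84%). At 8 h they included endophilin SH3GL2 (-0.63, adjusted p = 0.0116 in limma), the dynamin-binding protein DNMBP (-0.40, adjusted p = 0.0167) and SYNJ1, the uncoating phosphatase synaptojanin 1, at 0.49 (adjusted p = 0.0243). SYNJ1 is dim (3.96 in transfected and 3.47 in untransfected cells), and SH3GL2 was dim in transfected cells (4.18, against 4.81). OCRL, an inositol phosphatase, was lower by a different probe set at each time, at -0.31 (203446_s_at, adjusted p = 0.0266) at 8 h and -0.53 (208316_s_at, adjusted p = 0.0228) at 16 h. PACSIN3, a membrane-bending protein, was at -0.55 (adjusted p = 0.0297) at 16 h and INPP5B at 0.36 (adjusted p = 0.0420).

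Of 30 probe sets of caveolar and flotillin genes, 2 were lower at 8 h (6.67%) and 1 at 16 h (3.33%). EHD3, a membrane-remodelling ATPase, was lower in transfected cells at both times. It averaged 6.37 in transfected and 6.85 in untransfected cells at 8 h (log2 fold change -0.48, SE 0.11, adjusted p = 0.0119 in limma), and 7.07 and 7.52 at 16 h (-0.45, SE 0.11, adjusted p = 0.0219). Its relative EHD4 was at -0.29 (adjusted p = 0.0405) at 8 h. Of 64 probe sets of other adaptor complexes, 5 were lower at 8 h (7.81%), and 1 was higher and 2 were lower at 16 h (4.69%). AP1M1, the mu subunit of the AP-1 adaptor of the trans-Golgi network and endosomes, was at -0.57 (SE 0.11, adjusted p = 0.00580) at 8 h. AP1G1, its gamma subunit, was at -0.35 (adjusted p = 0.0227) at 8 h and -0.32 (adjusted p = 0.0450) at 16 h, and the Golgi adaptor GGA1 at -0.59 (adjusted p = 0.0336) and -0.70 (adjusted p = 0.0197). AP3M1 was at -0.42 (adjusted p = 0.0372) at 8 h, and AP3B2 at 0.48 (adjusted p = 0.0174) at 16 h.

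Of 61 probe sets for macropinocytosis and fluid uptake, 2 were higher and 4 lower at 8 h (9.84%), and 3 were higher at 16 h (4.92%). WASL, the actin nucleation factor N-WASP, was lower in transfected cells at 8 h. It averaged 8.16 in transfected and 8.74 in untransfected cells (-0.58, SE 0.09, adjusted p = 0.00147 in limma). The 3 at 16 h were all of SNX5, a sorting nexin of macropinosomes and retromer, at 0.47 (229980_s_at, adjusted p = 0.00498), 0.50 (222417_s_at) and 0.37 (217792_at). At 8 h SNX5 229980_s_at was at 0.35 (adjusted p = 0.0206) but SNX5 223666_at at -0.55 (adjusted p = 0.0355), so the probe sets of that gene disagreed. CTTN 214073_at, of the actin-binding protein cortactin, was at -0.70 (adjusted p = 0.0463) at 8 h.

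Of 49 probe sets of endocytic cargo receptors, 1 was higher and 3 were lower at 8 h (8.16%) and 1 was lower at 16 h (2.04%). EGFR, the epidermal growth factor receptor, was read in both directions at 8 h by dim probe sets, at -0.80 (201983_s_at, adjusted p = 0.00567 in limma), -0.49 (224999_at, adjusted p = 0.00735) and 0.42 (211607_x_at, adjusted p = 0.0263). Beside these counts at 8 h, the HEK293 markers NEFL and ENO2 also passed and were lower in transfected cells, at -0.50 (adjusted p = 0.00380) and -0.71 (adjusted p = 0.00132). At 16 h they passed too, at -0.37 (adjusted p = 0.0298) and -0.42 (adjusted p = 0.0426), and at 2 h NEFL was lower in treated cells, at -0.58 (adjusted p = 0.0183). The HEK293 list holds 14 probe sets, of which 2 passed at 8 h and 2 at 16 h, all lower. At each of these times 7 of the 14 had positive and 7 had negative log2 fold changes. The positive ones reached 0.65 at 8 h and 0.62 at 16 h. At 2 h 1 of the 14 passed, and 5 were positive and 9 negative. The list thus did not move in a single direction at 8 or 16 h. The part of these markers in the list counts was not tested. The difference between the share of any list and that of the members was not tested.

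**Figure D5:**
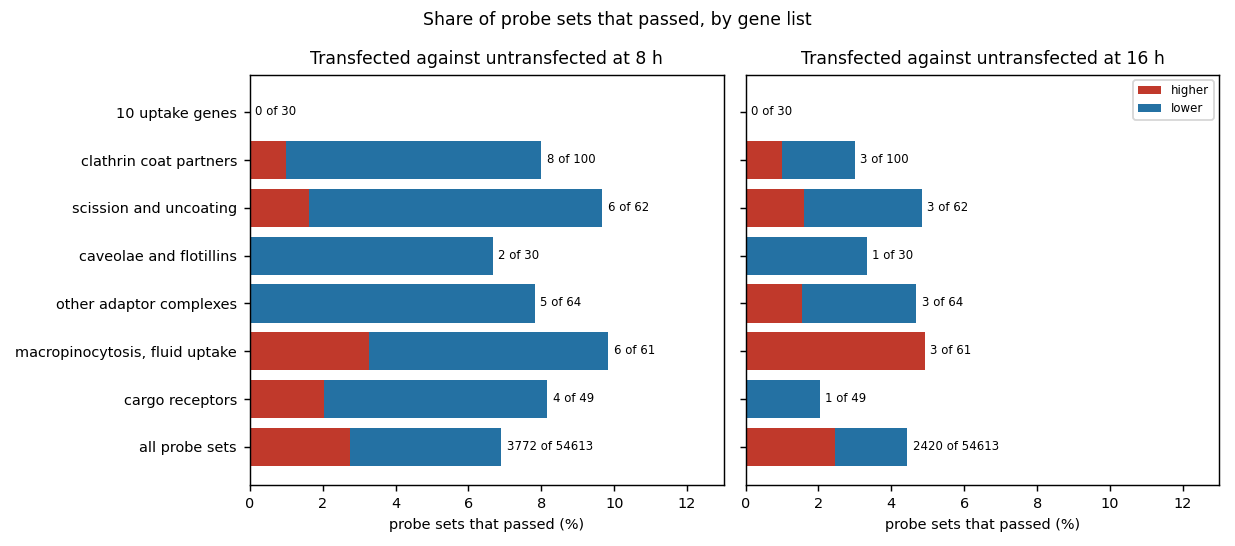
Share of probe sets that passed (horizontal axis, percent) in each list at 8 h (left) and 16 h (right), transfected against untransfected cells, with higher ones in red and lower ones in blue. In this unpaired fit the 10 uptake genes have 0 of 30 at both times. The fit blocked by replicate number, not drawn, called 1 at each, beside 9.4% and 6.75% of all probe sets. The partner lists range from 6.67% to 9.84% at 8 h and from 2.04% to 4.92% at 16 h. All probe sets stand at 6.91% and 4.43%.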

How the data were processed

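Log2 expression per probe set was deposited for each array, made by the authors with RMA in R 2.11.1 (2, 8 and 16 h) or R 2.9.0 (24 h), per the submitters' processing notes. The RNA of 2, 8 and 16 h was purified by Trizol and a column and that of 24 h by Trizol alone, per the labels' protocols. The authors' deposited tables add group means (log2), log2 fold changes and a posterior probability, a score from 0 to 1 whose model is not given in the sources used here; their fold column was not used. Symbols came from these tables.

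Members, lists and tests were chosen with earlier results of these data known. In limma 3.58.1 (R 4.3.3), lmFit and eBayes were run on 54613 probe sets, leaving out 62 controls. The 17 arrays of 2, 8 and 16 h shared 1 model of 6 group means, and the 6 arrays of 24 h were fitted alone. All tests were two-sided, and the script was tested on simulated data. Named were all members, up to 4 passing probe sets per list and comparison with the smallest p, and, for 4 members, the 3 most correlated probe sets of other genes. Replicate numbers were taken to pair samples where every same-numbered correlation of deviations was over 0.1, which held at 8 h alone. No 2 arrays held the same values throughout, though at 2 h many member probe sets held equal values on some arrays. Precision is limited by 2 or 3 arrays per group. Alternatives were other samples in the fit, a replicate block, scalings, filters, weights, a trended prior and leaving out each array. Values of 1 listed cargo receptor are not reported here. Promoters were read from RefSeq tables. Figures were drawn with matplotlib 3.10.9 in Python 3.11.15.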

Additional observations from a re-analysis of the deposited data

How the results depend on the processing

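No member passed at 24 h, or for the 16 h minus 8 h difference, under any alternative run. Since no member passed in the main fit, there was no call whose sign could change. Some estimates near 0 did change sign when 1 array was left out. They ranged from -0.14 to 0.17 for CLTA 1560434_x_at at 8 h, and from -0.07 to 0.18 for AP2M1 at 16 h. Some alternatives added a call. With the replicate block 1 member passed at 8 h (CAV2 203324_s_at, as above) and 1 at 16 h (the same probe set, -0.34, adjusted p = 0.0438), where the block called 3685 of all probe sets. At 16 h same-numbered arrays correlated at 0.317, 0.0909 and 0.443, and not every array correlated best with its own number. At 24 h these were -0.06, -0.21 and -0.36, and at 2 h, with 2 pairs, -0.11 and -0.05; the block called no member at either time. With array weights 1 of 30 members passed at 2 h (DNM2 1555895_at, 0.34, adjusted p = 0.0257 in limma), beside 1602 of 54613 probe sets. At 2 h no member passed when 1 treated array was left out, and without untreated replicate 1 AP2A1 234068_s_at was at -0.86. At 8 h leaving out untransfected replicate 1 or 2 gave 1 of 30 members each time, beside 3309 and 2362 of 54613 probe sets. Leaving out any other 8 h array gave 0, as did leaving out any array of 16 or 24 h.

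The counts over all probe sets moved more. At 2 h the 300 became 107 with all 23 arrays, 0 with the arrays of that time alone, 147 with 1 probe set per gene and 1602 with array weights, and 27 to 284 without 1 array. At 8 h the 3772 became 1170, 1843 and 2468 under the first 3 of these and 2027 to 3309 without 1 array. At 16 h the 2420 became 32, 675 and 1265, and 1178 to 2401 without 1 array. Both fits with 1 probe set per gene tested 20066 features in place of 54613. The cause of the other shifts was not tested. Scaling moved the split of higher and lower calls. At 8 h it was 1504 and 2268, with quantile normalization 1938 and 1901, and with each array centred on its median 1360 and 2832. At 16 h it was 1348 and 1072, with quantile normalization 1677 and 804, and with each array centred on its median 1816 and 614. The 7 dim probe sets lie at or below the median level of the array, which limits what they can show.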
